A study of Arabidopsis thaliana with 12 samples.

Results

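The PLETHORA and AINTEGUMENTA-like genes are a small family of plant transcription factors with a pair of AP2 domains. The 8 members described here were chosen by their gene identifiers: PLT1 (AT3G20840), PLT2 (AT1G51190), PLT3 (AT5G10510), BBM (AT5G17430), PLT5 (AT5G57390), PLT7 (AT5G65510), ANT (AT4G37750) and AIL1 (AT1G72570). They are 8 of 33557 genes in the authors' deposited table, which names 7 of them by symbol and lists AIL1 by its identifier alone. In the study, RNA of Arabidopsis thaliana root explants was sequenced in 4 groups of 3 samples, 12 in all. The groups were plants labelled CPL4RNAi on shoot-induction medium with cytokinin, the same line without cytokinin, wild-type plants with cytokinin, and wild-type plants without it. Wild type was Col-0 carrying gl1, the background of every group is given as Columbia, and all explants were 18 days old. Roots of 10-day seedlings, cut free of their shoots, spent 5 days on callus-induction medium (CIM) and then 72 h on shoot-induction medium (SIM) with 0.05 or 0 mg/L of the cytokinin 2iP. The line is called a CPL4 knockdown in the study's design and "CPL4 KO" in the genotype label. The number of independent lines and the promoter of the RNAi construct are not given in the sources used here.

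PLT genes are known as auxin-dependent regulators of root growth. PLT1 and PLT2 maintain the root stem cell niche together with PLT3 and BBM, and the proteins act by dose. PLT3, PLT5 and PLT7 are known for lateral root formation and for making callus competent to form shoots. CUC1 and CUC2 are reported to act downstream of them in shoot formation. BBM promotes embryonic and regenerative growth when overexpressed, and ANT drives organ growth and cell proliferation, including in the root cambium.

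The table gives 1 FPKM value per group (fragments per kilobase of transcript, scaled to the number of mapped fragments), so levels can be set side by side between genes, but the spread of the 3 samples in a group is not shown. Sequencing depth is unknown, and 18155 to 18486 genes reached 1 FPKM in a group. A gene was called changed at a q-value (adjusted p-value) of 0.05 or less, as deposited by the authors. The standard error of each log2 fold was derived from the deposited p-value, and it covers the variance that Cuffdiff modelled. The smallest deposited p-value, 5e-05, is a floor, so a gene at the floor has a standard error given as "at most". CPL4 itself, which encodes a phosphatase of the RNA polymerase II tail, stood at 32.2 FPKM with and 36.3 FPKM without cytokinin in the groups labelled CPL4RNAi, against 13.9 and 14.5 FPKM in wild type. The FPKM of CPL4 was thus higher in the groups labelled as its knockdown (log2 fold 1.21 with and 1.33 without cytokinin, q = 2.7e-04 in the authors' deposited table for both). This goes against the label, so every genotype direction below is that of the groups labelled CPL4RNAi and not that of a measured loss of CPL4 mRNA. Whether reads of the RNAi construct add to the CPL4 value was not tested.

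Of the 8 genes, 7 were transcribed in all 4 groups, and their levels covered a wide range. PLT3 was the most abundant member everywhere, with 187.0 FPKM in the group labelled CPL4RNAi with cytokinin and 213.4 FPKM without, against 193.8 and 218.2 FPKM in wild type. That put PLT3 above 97.2% to 98.0% of the 25249 genes above 0 in any group. PLT7 came next in every group and BBM after it. PLT1 held rank 4 except in the group labelled CPL4RNAi with cytokinin, where ANT held rank 4 and PLT1 rank 5. PLT5 was the lowest of the 7 everywhere except in wild type without cytokinin, where ANT was lowest. AIL1 was listed at 0 in all 4 groups and was not tested in any comparison, so it enters no fold or count of calls. The ratio of the highest to the lowest group was 1.17 for PLT3, 1.50 for PLT2, 1.88 for PLT7, 2.54 for BBM, 2.66 for PLT1, 3.23 for PLT5 and 5.93 for ANT. The most abundant gene of the family was therefore the one whose level moved least among these groups.

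**Figure D1:**
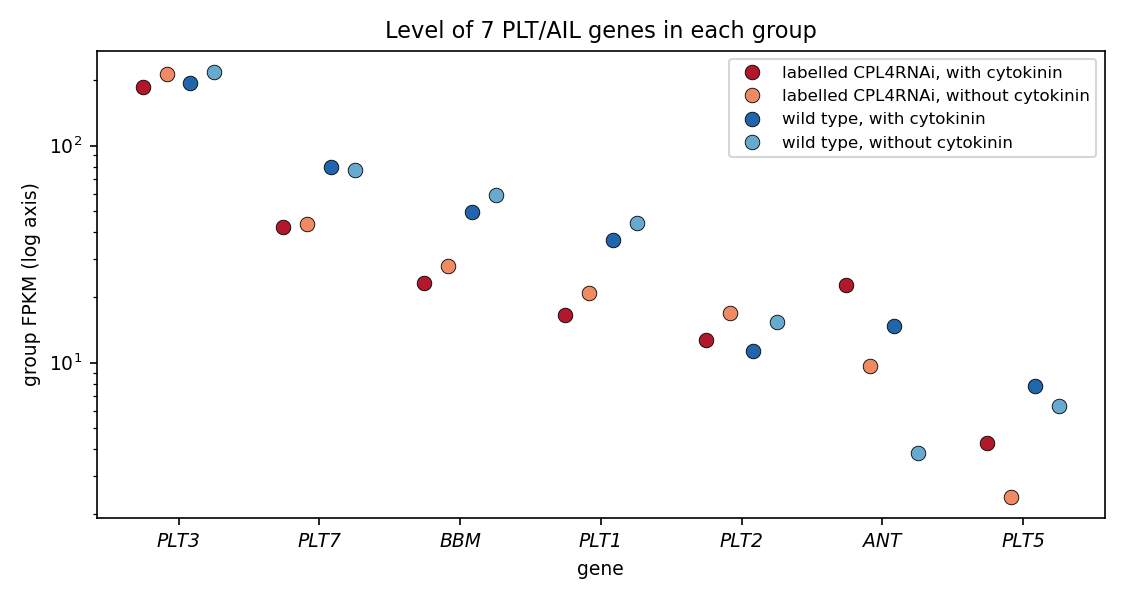
Level of the 7 transcribed PLT/AIL genes in each group (FPKM, log axis), one point per group and gene, each point the authors' value for 3 samples. PLT1, BBM, PLT5 and PLT7 lie lower in both groups labelled CPL4RNAi (red shades) than in both wild-type groups (blue shades), PLT3 lies between 187.0 and 218.2 FPKM throughout, and ANT is lowest in wild type without cytokinin.

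The first question was how the line labelled CPL4RNAi differed from wild type on the same medium. Without cytokinin, PLT1, BBM, PLT5 and PLT7 were lower in the groups labelled CPL4RNAi, ANT was higher, and PLT2 and PLT3 were not called. The 5 calls among 7 tested members compare with 44.1% of the 19277 genes tested being called in either direction, 22.5% higher and 21.5% lower. The median log2 fold of the 7 members was -0.83, against 0.00 over all genes tested. With cytokinin the same 4 members were lower, ANT was again higher, and PLT2 and PLT3 were again not called. Of the 19209 genes tested there 49.4% were called, 24.7% higher and 24.7% lower, and the medians were -0.87 for the members and 0.01 for all genes tested. The 2 comparisons share no group. In explants, which hold many cell types, fewer cells of a type and less RNA per cell cannot be told apart.

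Among the root stem cell regulators, PLT1 and PLT2 did not follow each other. PLT1 had 16.5 FPKM with cytokinin and 20.9 FPKM without in the groups labelled CPL4RNAi, against 36.7 and 43.9 FPKM in wild type. Its level was 2.22-fold lower in the group labelled CPL4RNAi with cytokinin (log2 fold -1.15, SE at most 0.28) and 2.10-fold lower without (log2 fold -1.07, SE at most 0.26), each with q = 2.7e-04 in the authors' deposited table. PLT2, its closest relative, had 12.7 FPKM with cytokinin and 17.0 FPKM without in the groups labelled CPL4RNAi, against 11.3 and 15.4 FPKM in wild type. The log2 fold of PLT2 between the genotypes was 0.16 ± 0.12 (SE) with cytokinin and 0.14 ± 0.12 without, with q of 0.33 and 0.38 in the authors' deposited table. The 95% intervals, -0.08 to 0.40 and -0.09 to 0.37, leave out a fall of the size seen for PLT1, although the difference between these genes was not itself tested. PLT1 was 1.31 times PLT2 with cytokinin and 1.23 times without in the groups labelled CPL4RNAi, against 3.24 and 2.85 times in wild type.

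BBM, which promotes embryonic growth, moved by nearly the same factor as PLT1. It had 23.4 FPKM with cytokinin and 27.9 FPKM without in the groups labelled CPL4RNAi, against 49.5 and 59.3 FPKM in wild type. Its log2 fold was -1.08 (SE at most 0.27) with cytokinin and -1.09 (SE at most 0.27) without, each with q = 2.7e-04 in the authors' deposited table. The ratio of PLT1 to BBM stayed between 0.706 and 0.750 in the 4 groups.

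The 3 genes known for lateral roots and shoot competence parted in the same way as PLT1 and PLT2 did. PLT3 showed log2 folds of -0.05 ± 0.12 (SE) with cytokinin and -0.03 ± 0.12 without, with 95% intervals of -0.28 to 0.18 and -0.26 to 0.20 and q of 0.80 and 0.88 in the authors' deposited table. PLT7 had 42.3 FPKM with cytokinin and 43.3 FPKM without in the groups labelled CPL4RNAi, against 79.4 and 77.0 FPKM in wild type. That is a log2 fold of -0.91 (SE at most 0.22) with cytokinin and -0.83 (SE at most 0.20) without, both at q = 2.7e-04 in the authors' deposited table. PLT5 had 4.26 FPKM with cytokinin and 2.41 FPKM without in the groups labelled CPL4RNAi, against 7.80 and 6.34 FPKM in wild type. PLT5 fell by 0.87 on the log2 scale with cytokinin (SE at most 0.22) and by 1.39 without (SE at most 0.34), again at q = 2.7e-04 in the authors' deposited table.

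ANT, the growth regulator, was the one member that was higher in the groups labelled CPL4RNAi. It had 22.7 FPKM with cytokinin and 9.68 FPKM without in those groups, against 14.8 and 3.83 FPKM in wild type. The log2 fold was 0.62 (SE at most 0.15) with cytokinin and 1.34 (SE at most 0.33) without, each with q = 2.7e-04 in the authors' deposited table. Xylem genes differed between the same groups: the summed level of 7 xylem markers was 53.6 FPKM with cytokinin and 83.2 FPKM without in the groups labelled CPL4RNAi, against 40.1 and 6.96 FPKM in wild type. Of these markers 7 of 7 were higher in the group labelled CPL4RNAi without cytokinin and 2 of 7 with it. Their part in the ANT result was not tested.

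**Figure D2:**
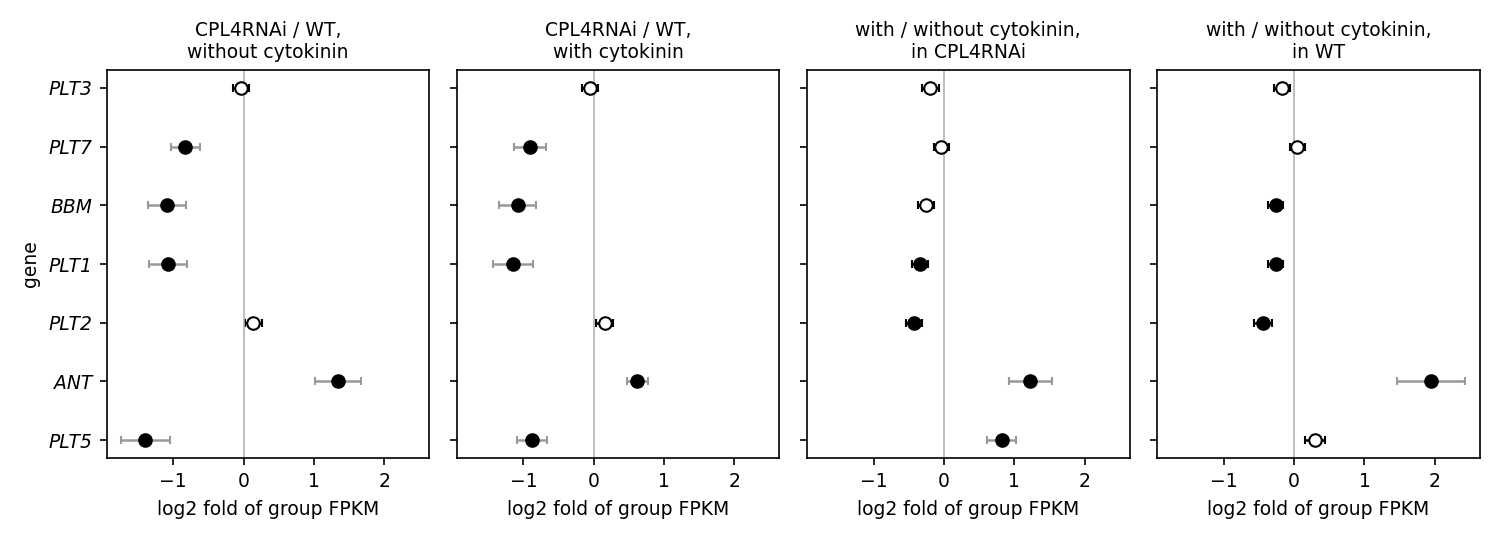
Log2 fold of group FPKM for the 7 tested genes (first-named group over the second) in the 4 comparisons that change a single factor; bars are the standard error implied by the deposited p-value (grey: an upper limit, where the p-value is at its floor). Filled points were called at a q-value at or under 0.05. PLT1, BBM, PLT5 and PLT7 lie left of 0 and ANT right of 0 in both genotype panels, and ANT has the largest fold of the 7 in both cytokinin panels.

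Added up, the family's transcripts came to 308.9 FPKM with cytokinin and 334.6 FPKM without in the groups labelled CPL4RNAi, against 393.2 and 424.0 FPKM in wild type. PLT3 made up 60.6% and 63.8% of this sum in the groups labelled CPL4RNAi with and without cytokinin, against 49.3% and 51.5% in wild type. Without PLT3 the sums were 121.8 and 121.2 FPKM in the groups labelled CPL4RNAi with and without cytokinin, against 199.4 and 205.8 FPKM in wild type. The log2 ratio of the genotypes without cytokinin was -0.34 for the whole sum and -0.76 with PLT3 left out. For the whole sum the SE was at most 0.083, carried over from the members, taken as independent. With cytokinin the log2 ratio was -0.35 (SE at most 0.083) for the whole sum and -0.71 with PLT3 left out. The make-up of the pool also differed: ANT was 7.35% of it in the group labelled CPL4RNAi with cytokinin and 2.89% without, against 3.76% and 0.902% in wild type. PLT1 made up 5.35% with cytokinin and 6.24% without in the groups labelled CPL4RNAi, against 9.33% and 10.4% in wild type. These sums are descriptions, with no test.

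**Figure D3:**
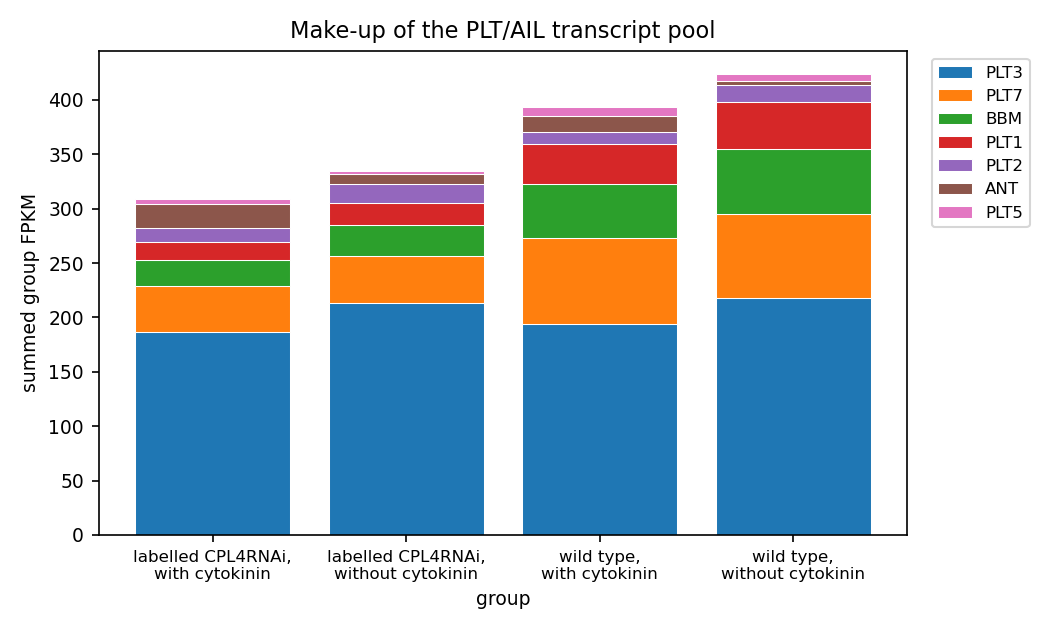
Summed FPKM of the 7 transcribed PLT/AIL genes in each group, with each gene's part as a coloured segment. The bars reach 308.9 and 334.6 FPKM in the groups labelled CPL4RNAi with and without cytokinin and 393.2 and 424.0 FPKM in wild type, and the PLT3 segment at the base is of similar height in all 4.

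The second question was what cytokinin did within each genotype. ANT was the member that cytokinin raised most in both. In the groups labelled CPL4RNAi ANT had 22.7 FPKM with and 9.68 FPKM without cytokinin, 2.35-fold higher (log2 fold 1.23, SE at most 0.30), and in wild type it had 14.8 FPKM with and 3.83 FPKM without, 3.86-fold higher (log2 fold 1.95, SE at most 0.48). Both calls stood at q = 2.7e-04 in the authors' deposited table. Among all genes tested, the fold of ANT lay at percentile 98.6 in the groups labelled CPL4RNAi and at percentile 99.3 in wild type. Of the 7 xylem markers, 7 of 7 were lower with cytokinin in the groups labelled CPL4RNAi, where ANT was higher. In wild type 5 of 7 were higher with it and 0 lower, the direction of ANT. Their part in the cytokinin effect on ANT was not tested.

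PLT1 and PLT2 fell modestly with cytokinin in both genotypes. PLT2 showed a log2 fold of -0.42 ± 0.11 (SE) in the groups labelled CPL4RNAi and -0.44 ± 0.12 in wild type, with q of 9.7e-04 and 0.0016 in the authors' deposited table. For PLT1 the log2 fold was -0.34 ± 0.11 in the groups labelled CPL4RNAi (q = 0.0096 in the authors' deposited table) and -0.26 ± 0.11 in wild type (q = 0.039). The wild-type call is close to the threshold and is lost where the p-values are adjusted within that comparison alone. BBM had log2 folds of -0.25 ± 0.11 in the groups labelled CPL4RNAi and -0.26 ± 0.11 in wild type, of equal size, yet only the wild-type value passed the threshold (q of 0.060 and 0.038 in the authors' deposited table), and it too is lost with that adjustment.

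PLT3 and PLT7, by contrast, gave no call with cytokinin in either genotype. PLT3 had log2 folds of -0.19 ± 0.12 (SE; 95% interval -0.42 to 0.04) in the groups labelled CPL4RNAi and -0.17 ± 0.12 (-0.40 to 0.06) in wild type. PLT7 had log2 folds of -0.03 ± 0.11 (-0.24 to 0.17) in the groups labelled CPL4RNAi and 0.04 ± 0.10 (-0.16 to 0.25) in wild type, the smallest cytokinin folds in the family. PLT5 was higher with cytokinin in the groups labelled CPL4RNAi, at 4.26 FPKM with and 2.41 FPKM without (log2 fold 0.82, SE at most 0.20, q = 2.7e-04 in the authors' deposited table). In wild type PLT5 had 7.80 FPKM with and 6.34 FPKM without, a log2 fold of 0.30 ± 0.14 that was not called (q = 0.086 in the authors' deposited table). In all, 2 of 7 tested members were higher and 2 lower in the groups labelled CPL4RNAi, where 17.3% of 19156 genes tested were called, 8.42% higher and 8.88% lower. In wild type 1 member was higher and 3 were lower, where 10.3% of 18827 genes tested were called, 6.58% higher and 3.71% lower.

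Whether cytokinin acted differently in the 2 genotypes was tested as the difference of the log2 folds, in the groups labelled CPL4RNAi minus in wild type. Of the 7 members 0 were called after Benjamini-Hochberg adjustment over the 17946 genes tested with a z test on the derived standard errors. Over all genes 472 were called, or 2.63% of those tested (0.502% with a positive and 2.13% with a negative difference). An unadjusted p under 0.05 in that z test was found for 2 of the 7 members and for 2144 of the 17946 genes. With the variance taken from the cytokinin comparisons alone, it was found for 1 member and for 2058 of 16851 genes. PLT5 had a difference of 0.52 (SE at most 0.25), with a larger cytokinin effect in the groups labelled CPL4RNAi (adjusted p = 0.35, z test on standard errors from the authors' p-values). ANT had a difference of -0.72 (SE at most 0.36), with a smaller effect in the groups labelled CPL4RNAi (adjusted p = 0.41, z test on standard errors from the authors' p-values). Since these standard errors are upper limits, the true p-values of PLT5 and ANT may be smaller. For the other 5 the differences lay between -0.08 and 0.02. Their 95% intervals were -0.38 to 0.22 for PLT1, -0.31 to 0.35 for PLT2, -0.34 to 0.30 for PLT3, -0.29 to 0.31 for BBM and -0.37 to 0.21 for PLT7. In simulated data this test recovered 62.0% of genes with a true log2 difference of 1 and 88.0% of those with 2, so smaller differences could go uncalled. These rates average over genes of many standard errors and do not give the recovery of any 1 member. The 5 members other than PLT5 and ANT had standard errors of 0.15 to 0.17. Genes with only an upper limit, as PLT5 and ANT have, were not simulated.

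**Figure D4:**
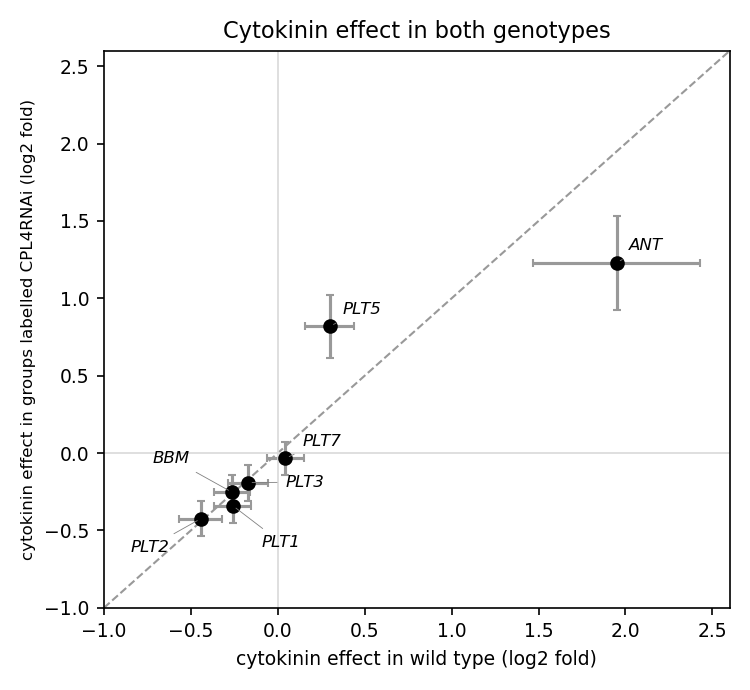
Cytokinin effect (log2 fold, with over without cytokinin) of the 7 tested genes in the groups labelled CPL4RNAi (y axis) and in wild type (x axis), with standard errors as bars, upper limits included, and a dashed line of equal effects. PLT1, PLT2, PLT3, BBM and PLT7 lie within 0.08 of the line, PLT5 lies 0.52 above it and ANT 0.72 below it.

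The remaining pairs of groups change genotype and medium together and are given as values beside those above, with which they share groups. In the group labelled CPL4RNAi with cytokinin against wild type without, ANT was 5.93-fold higher (log2 fold 2.57, SE at most 0.63), and PLT1 and BBM had log2 folds of -1.41 and -1.34. In that pair 1 tested member was higher and 5 were lower, with 51.6% of 19291 genes tested called, 26.4% higher and 25.2% lower. In the reverse pairing, of the group labelled CPL4RNAi without cytokinin against wild type with it, ANT was lower (9.68 against 14.8 FPKM, log2 fold -0.61, SE at most 0.15) and PLT2 was higher (17.0 against 11.3 FPKM, log2 fold 0.58, SE at most 0.14). In this pair 1 tested member was higher and 5 were lower, with 44.0% of 19309 genes tested called, 21.4% higher and 22.6% lower. PLT3 was not called in either pair (log2 folds -0.22 ± 0.12 and 0.14 ± 0.12), so it was uncalled in all 6 comparisons.

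Sequence likeness did not order the members as their levels did. Over all 28 pairs, aligned coding bases (RefSeq annotation of the TAIR10.1 genome) were 65.5% to 81.1% identical, with a median of 69.1%. PLT1 and PLT2 led with 81.1% and PLT3 and PLT7 followed with 80.9%, while the third pair reached 72.4%. In both leading pairs, 1 gene was lower in the groups labelled CPL4RNAi and the other was not called. PLT1 and BBM, whose levels ran side by side, were 68.2% identical. Likeness of pattern was measured as the distance between centred log2 FPKM over the 4 groups: it was 0.066 for PLT1 and BBM, the shortest of 21 pairs, 0.85 for PLT3 and PLT7, 1.27 for PLT1 and PLT2, and 2.84 for PLT1 and ANT, the longest. The longest stretch that any 2 coding sequences share is shown because it bears on whether reads could be assigned to the wrong member. It is 38 bases, lies in PLT1 and PLT2, and is shorter than the 125-nt reads. None of the 50-base exonic windows of a member (847 to 2347 per gene) occurred anywhere else in the nuclear genome.
PLT1 and PLT2, shared coding stretch: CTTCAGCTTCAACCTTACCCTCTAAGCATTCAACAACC

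**Figure D5:**
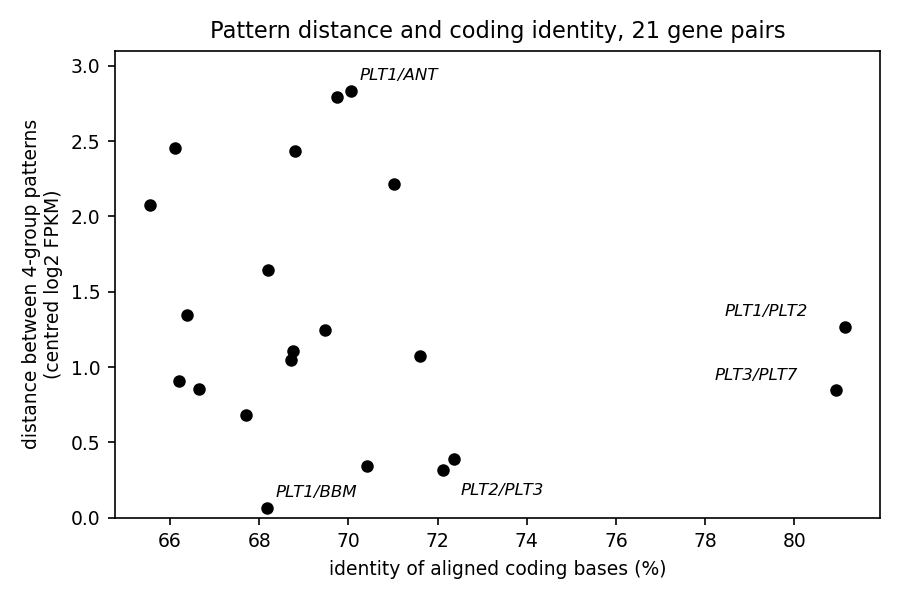
Distance between the 4-group patterns of each pair of genes (y axis, centred log2 FPKM) against the identity of their aligned coding bases (x axis, percent), for the 21 pairs of the 7 transcribed genes. The closest relatives, PLT1/PLT2 and PLT3/PLT7, lie at 1.27 and 0.85, and PLT1/BBM, with 68.2% identity, lies lowest at 0.066.

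The 250 bases before the annotated gene start are shown for PLT1 and BBM, which moved together, and for PLT2, the relative of PLT1 that was not called between genotypes. Each is read 5′ to 3′ on the strand of its gene, from the TAIR10.1 genome and RefSeq annotation, and capitals mark matches on either strand to 4 motifs. These are TGTCTC and TGTCGG, forms of the auxin response element, AGATAC, a site of type-B cytokinin response regulators, and TATAAA, the TATA box. The gene starts of RefSeq and of the authors' deposited table differ for many genes, PLT1 among them (7300444 and 7300675 on chromosome 3).
PLT1, chr3:7300194-7300443, plus strand: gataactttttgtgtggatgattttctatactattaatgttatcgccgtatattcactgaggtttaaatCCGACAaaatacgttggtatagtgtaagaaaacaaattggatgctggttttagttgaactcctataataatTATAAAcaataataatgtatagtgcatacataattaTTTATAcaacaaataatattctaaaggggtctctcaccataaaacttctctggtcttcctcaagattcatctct
BBM, chr5:5745749-5745998, minus strand: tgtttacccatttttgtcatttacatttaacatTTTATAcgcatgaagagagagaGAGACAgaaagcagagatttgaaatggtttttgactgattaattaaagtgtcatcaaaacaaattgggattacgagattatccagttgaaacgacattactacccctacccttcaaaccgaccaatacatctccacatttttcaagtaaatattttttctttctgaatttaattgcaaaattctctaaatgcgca
PLT2, chr1:18976926-18977175, plus strand: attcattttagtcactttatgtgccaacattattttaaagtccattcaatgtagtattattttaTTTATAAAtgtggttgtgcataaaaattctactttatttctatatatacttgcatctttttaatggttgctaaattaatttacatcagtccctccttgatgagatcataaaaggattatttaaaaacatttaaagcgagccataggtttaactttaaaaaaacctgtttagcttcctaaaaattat
In the PLT1 window there is 1 TGTCGG match, 181 bases before the start on the opposite strand, and 2 TATAAA matches. BBM has a TGTCTC match 195 bases before the start and a TATAAA match, both on the opposite strand. PLT2 has TATAAA matches on both strands that overlap each other and no match to the other 3 motifs. Among 4 other members examined, TGTCGG occurs before PLT3 and PLT5, TGTCTC before PLT7 and AIL1, and AGATAC before PLT3. Over 27438 promoters of the same length, 10.9% hold TGTCTC, 4.16% TGTCGG, 9.63% AGATAC and 47.4% TATAAA. These matches describe the letters of a short window and show no binding.

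Runs of identical bases were also compared between the promoters of 21 pairs, those of 7 members. The median longest run shared by a pair was 9 bases. The longest, 17 bases, was shared by PLT3 and PLT7, a pair in which the genes did not move together between genotypes, and it occurs in 2 of 27438 promoters, these same genes. It ends 60 bases before the PLT3 start and 157 bases before the PLT7 start. PLT1 and BBM share a run of 12 bases, which ends 142 and 129 bases before their starts and occurs in 21 of 27438 promoters (0.0765%). The windows below show each run in capitals with 15 bases on each side.
PLT3, chr5:3315310-3315356, plus strand: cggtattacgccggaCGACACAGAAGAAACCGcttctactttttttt
PLT7, chr5:26185405-26185451, plus strand: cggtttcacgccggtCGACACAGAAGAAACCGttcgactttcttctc
PLT1, chr3:7300276-7300317, plus strand: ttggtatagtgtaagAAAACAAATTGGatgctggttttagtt
BBM, chr5:5745862-5745903, minus strand: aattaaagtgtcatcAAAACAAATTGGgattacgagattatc

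Genes known to act upstream of the PLT genes came next. Of 12 such genes (auxin response factors, RGF peptides, their receptors and chromatin factors), 11 were tested with cytokinin between genotypes, where 3 were higher and 3 lower in the groups labelled CPL4RNAi, with a median log2 fold of 0.14. Without cytokinin 12 were tested, 2 were higher and 2 lower, with a median of 0.16. RGF2, a secreted root meristem growth factor, stood out with 30.0 FPKM with cytokinin and 42.3 FPKM without in the groups labelled CPL4RNAi, against 2.40 and 4.35 FPKM in wild type. Its log2 fold was 3.65 (SE at most 0.90) with and 3.28 (SE at most 0.81) without cytokinin, both at q = 2.7e-04 in the authors' deposited table. RGF peptides are known to sustain PLT protein, and PLT1 mRNA was lower in the same groups. ARF5, the auxin response factor MONOPTEROS, had 152.3 FPKM in the groups labelled CPL4RNAi and 115.3 FPKM in wild type without cytokinin (log2 fold 0.40 ± 0.12, q = 0.0030 in the authors' deposited table). AT4G26540, on the same list, had a log2 fold of -0.51 (SE at most 0.13) with cytokinin. Cytokinin lowered 2 genes of the list in each genotype, RGF2 and AT5G48940, and raised ARF19 in the groups labelled CPL4RNAi. Over all genes tested with cytokinin, 24.7% were called higher and 24.7% lower in the groups labelled CPL4RNAi, and 22.5% and 21.5% without it. Cytokinin raised 8.42% and lowered 8.88% of all genes tested in those groups, and 6.58% and 3.71% in wild type. These shares also apply to each gene and marker list below.

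Partners of the PLT genes in the root stem cell niche included WOX5, the homeobox gene of the quiescent centre, which moved in the same direction as PLT1 and BBM between the genotypes. WOX5 had 41.2 FPKM with cytokinin and 55.2 FPKM without in the groups labelled CPL4RNAi, against 135.1 and 155.1 FPKM in wild type (log2 fold -1.71, SE at most 0.42, and -1.49, SE at most 0.37, q = 2.7e-04 in the authors' deposited table for both). Of 12 genes on this list 11 were tested. With cytokinin 1 was higher and 4 were lower in the groups labelled CPL4RNAi (median log2 fold -0.02), and without it 2 were higher and 5 lower (median -0.24). The shares over all genes tested were 24.7% higher and 24.7% lower with cytokinin, and 22.5% and 21.5% without. SCR, JKD and BRAVO were lower on both media together with WOX5; these 3 are named after their values were seen. WIP4, a zinc finger gene whose locus begins 9844 bases after the end of PLT1, was higher: 6.67 FPKM with cytokinin and 7.79 FPKM without in the groups labelled CPL4RNAi, against 0.701 and 1.21 FPKM in wild type (log2 folds 3.25 and 2.69). PLT1 was lower in the same groups, and AT3G20850 lies between PLT1 and WIP4. Cytokinin lowered 5 of 11 in the groups labelled CPL4RNAi and 4 of 11 in wild type, and raised 0 in either by Cuffdiff's q-values in the authors' deposited table, with 0 also raised at an unadjusted p under 0.05. Over all genes tested, cytokinin lowered 8.88% in the groups labelled CPL4RNAi and 3.71% in wild type. NUC and MGP, zinc finger genes of the SCR and SHR pathway, had the largest cytokinin folds among the called genes on the list (-0.96 and -0.66 in the groups labelled CPL4RNAi, -1.16 and -1.10 in wild type).

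Genes reported to act downstream of PLT3, PLT5, PLT7 or BBM were called in both directions. CUC1, a NAC transcription factor of shoot meristem formation, had 24.2 FPKM with cytokinin and 17.8 FPKM without in the groups labelled CPL4RNAi, against 1.80 and 1.88 FPKM in wild type (log2 fold 3.75, SE at most 0.92, and 3.24, SE at most 0.80). CUC2, its partner, had 31.3 and 28.0 FPKM in the groups labelled CPL4RNAi with and without cytokinin, against 11.5 and 10.5 FPKM in wild type (log2 folds 1.44 and 1.42). All 4 calls stood at q = 2.7e-04 in the authors' deposited table. In the same comparisons PLT5 and PLT7 were lower and PLT3 was not called. Of the 7 genes on this list 6 were tested, and 3 were higher and 2 lower with cytokinin, and 2 higher and 3 lower without, in the groups labelled CPL4RNAi. The lower genes were auxin synthesis genes of the YUC family, while TAA1, another auxin synthesis gene, was higher with cytokinin. In the groups labelled CPL4RNAi cytokinin raised 2 genes, among them YUC4 (log2 fold 0.84, SE at most 0.21), and lowered 3, among them YUC3 (-0.72 ± 0.28). In wild type it raised 0 by Cuffdiff's q-values in the authors' deposited table (0 also at an unadjusted p under 0.05) and lowered TAA1 (log2 fold -1.21, SE at most 0.30) and YUC8 (-0.73, SE at most 0.18).

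Of 6 embryo regulators linked to BBM, only LEC1 and AGL15 were tested; LEC2, FUS3, ABI3 and L1L stayed below 1 FPKM in every group. AGL15, a MADS-box gene of embryogenesis, had 10.2 FPKM with cytokinin and 9.64 FPKM without in the groups labelled CPL4RNAi, against 24.9 and 20.4 FPKM in wild type (log2 folds -1.29 and -1.08, q = 2.7e-04 in the authors' deposited table for both). These folds had the sign of those of BBM. LEC1, a NF-Y subunit of embryo identity, was higher in the group labelled CPL4RNAi without cytokinin (6.96 against 2.91 FPKM, log2 fold 1.26) and was lower with than without cytokinin in those groups (2.97 against 6.96 FPKM, log2 fold -1.23).

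Of 10 growth and cambium genes linked to ANT 9 were tested, and without cytokinin 6 were higher and 2 lower in the groups labelled CPL4RNAi, with a median log2 fold of 0.93. With cytokinin 4 were higher and 1 lower, with a median of 0.19. Over all genes tested, 44.1% were called without and 49.4% with cytokinin. CYCD3;1, a D-type cyclin that responds to cytokinin, had 307.9 FPKM with cytokinin and 230.2 FPKM without in the groups labelled CPL4RNAi, against 100.2 and 76.1 FPKM in wild type (log2 folds 1.62 and 1.60). PXY, the cambium receptor kinase, had 59.5 FPKM in the groups labelled CPL4RNAi and 10.7 FPKM in wild type without cytokinin (log2 fold 2.47, SE at most 0.61). Cytokinin raised 4 of 9 and lowered 1 in the groups labelled CPL4RNAi (median log2 fold 0.15). In wild type it raised 7 of 9 and lowered 0 by Cuffdiff's q-values in the authors' deposited table, with 1 lowered at an unadjusted p under 0.05 (median log2 fold 0.70). Over all genes tested, cytokinin raised 8.42% in the groups labelled CPL4RNAi and 6.58% in wild type. LBD3, a LOB-domain gene of vascular tissue, had 49.8 FPKM with and 7.56 FPKM without cytokinin in the groups labelled CPL4RNAi, and 22.2 FPKM with and 2.86 FPKM without in wild type (log2 folds 2.72 and 2.96). WOX4, the homeobox gene of the cambium, was higher with cytokinin in wild type (13.0 against 4.26 FPKM, log2 fold 1.61), and ARGOS, an organ growth gene that acts through ANT, was higher with it in the groups labelled CPL4RNAi (26.6 against 6.93 FPKM, log2 fold 1.94). These list counts are descriptions with no list test, and the median log2 fold over all genes tested lay between 0.00 and 0.02 in each of the 4 comparisons.

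Markers of other tissues differed between the same groups. The labelled tissue is root: the summed level of 8 markers of outer root tissue and cap was 111.5 FPKM with and 172.9 FPKM without cytokinin in the groups labelled CPL4RNAi, against 25.0 and 37.4 FPKM in wild type, with GL2 and COBL9, which mark root epidermis and hairs, below 1 FPKM in all groups. Of these markers 5 of 6 tested were higher and 1 was lower between genotypes without cytokinin, and 6 of 7 were higher and 1 lower with it, given for the groups labelled CPL4RNAi. The sum of 3 phloem markers was 33.1 FPKM with and 13.8 FPKM without cytokinin in the groups labelled CPL4RNAi, against 46.5 and 35.4 FPKM in wild type, and 3 of 3 were lower on both media. The sum of 5 shoot meristem markers was 29.9 and 30.4 FPKM with and without cytokinin in the groups labelled CPL4RNAi, against 18.5 and 21.2 FPKM in wild type, with CLV3 and KNAT2 below 1 FPKM. Of these 3 were tested between genotypes, and they were called in opposite directions: WUS was higher in the groups labelled CPL4RNAi on both media (1.28 and 1.32 FPKM with and without cytokinin, and listed at 0 in wild type), STM was higher without cytokinin (21.7 against 0.0652 FPKM) and not called with it (21.9 against 0.0436 FPKM), and KNAT1 was lower on both (6.06 and 6.61 FPKM with and without cytokinin, against 18.2 and 20.6 FPKM). The sum of 4 markers of leaf and shoot epidermis lay between 13.7 and 18.4 FPKM, with the photosynthesis genes CAB1 and RBCS1A below 1 FPKM. The part of these tissues in the PLT results was not tested.

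For each member called in any comparison, the 3 genes with the most similar pattern over the 4 groups were found among 15655 genes of 5 FPKM or more in a group. PLT7 had the closest neighbours, AT4G16150 at a distance of 0.018, MPK3 at 0.034 and NPR1 at 0.034. PLT1 and BBM share AT5G27410 as their nearest gene (0.047 and 0.041), and PLT1 is the second nearest gene to BBM. The others nearest to PLT1 were AT5G66600 (0.061) and AT1G05577 (0.063), and the third nearest to BBM was BOR1 (0.095). PLT2 had AT5G12940 (0.072), ChiC (0.081) and AT3G18510 (0.084). PLT5 had AT3G48080 (0.117), WRKY46 (0.130) and AT2G23060 (0.175). ANT had the most distant ones, DELTA-TIP (0.320), GASA5 (0.339) and AT2G28140 (0.405). A distance over 4 group values says nothing of function.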

How the data were processed

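Libraries were stranded and depleted of ribosomal RNA, and were read as 125-nt pairs, per the labels' protocols. The submitters' processing notes name bcl2fastq 2.17.1.14, TopHat2 2.0.14, Cuffdiff 2.2.1.3 and the TAIR10 genome, with no options. The authors' deposited table gives FPKM per group, and a p-value and a q-value for each of 6 pairwise comparisons, per the file headers. Its q-value equals a Benjamini-Hochberg adjustment over all 115069 tests (largest difference 5.3e-07), so every call is adjusted over the whole table. Replicates are called biological by the series; whether they came from separate cultures is not stated, and no values per replicate were analysed here.

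Log2 folds were computed from group FPKM without a pseudocount. To obtain a standard error, each fold was divided by the normal quantile that matches its deposited p-value; at the floor of 5e-05 this quantile is 4.06, so the standard error is at most 0.247 of the fold. For the difference of cytokinin effects the summed variance of the 4 groups was solved from pairs of comparisons, and 440 genes whose pairs differed by more than 10% were left out. This step was tested on simulated data of 16491 genes with solved standard errors, where 9 of 159 calls (5.66%) had no true change. Genes with only an upper limit were not simulated. The simulated p-values followed the normal model of the test itself, with equal variance in the 4 groups. They therefore cannot show whether Cuffdiff's p-values follow that model. The alternatives tried were another q threshold, a minimum fold, other adjustments, a low-value filter, protein-coding genes alone, a pseudocount, recentring and the source of the variance.

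Sequences were read from the RefSeq TAIR10.1 genome and annotation; of 26687 genes matched by identifier, 41.1% have at least 1 end in common with the deposited table. The promoter of 1 member is not reported here. From each gene list, the called genes with the 2 largest folds in each of 4 comparisons are named, provided that the higher group reaches 1 FPKM and the lower is not 0, besides the 8 members, CPL4 and the 3 nearest patterns. The members and lists were chosen with earlier results of these data known. Python 3.11.15, NumPy 2.4.6, pandas 2.3.3, SciPy 1.17.1, Biopython 1.88 and matplotlib 3.10.9 were used.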

Additional observations from a re-analysis of the deposited data

Results flagged for a closer look

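Cytokinin effects that differed between the genotypes were found outside the family, among genes linked to ANT and among xylem markers, each with the difference of log2 folds (groups labelled CPL4RNAi minus wild type) passing the adjusted threshold of the z test. ARGOS had a difference of 0.93 (adjusted p = 0.012, z test on the authors' p-values), with log2 folds of 1.94 in the groups labelled CPL4RNAi and 1.01 in wild type. PXY had a difference of -1.51 (adjusted p = 0.0053, z test on the authors' p-values) and ATHB8, a homeobox gene of early vascular cells, a difference of -0.78 (adjusted p = 0.0095); in both the cytokinin effect was near 0 in the groups labelled CPL4RNAi, at -0.06 and -0.08, and positive in wild type, at 1.45 and 0.70. Among the xylem genes the differences were -3.36 for XCP1 (adjusted p = 3.6e-04, z test on the authors' p-values), -3.45 for XCP2 (adjusted p = 5.1e-04), -1.82 for CESA7 (adjusted p = 0.025) and -3.30 for CESA8 (adjusted p = 2.7e-05), each lower with cytokinin in the groups labelled CPL4RNAi and higher with it in wild type. CESA7 is also the gene next to BBM on chromosome 5. The other xylem markers, VND7, VND6 and CESA4, did not pass (adjusted p = 0.085, 0.079 and 0.052, z test on the authors' p-values). Of the genes linked to ANT, WOX4, LBD3, LBD4, CYCD3;1, CYCD3;2 and CYCD3;3 did not pass either. Over all genes tested, 2.63% passed, 0.502% with a positive and 2.13% with a negative difference. For ANT itself the difference was -0.72 and did not pass the threshold.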

How the results depend on the processing

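Of 362 alternative values for 49 values of the members, 335 kept their direction and side of the threshold, 27 lost their call and 0 reversed. The thresholds, minimum fold, adjustments, filters and source of the variance leave a fold as it is. A pseudocount cannot change its sign, so a reversal was possible only with recentring. A minimum of 2-fold left 0 members higher and 2 lower between genotypes with cytokinin, 0 lower with cytokinin in wild type, and 1 higher and 0 lower with cytokinin in the groups labelled CPL4RNAi. In the crossed pairs it left 2 lower (CPL4RNAi with cytokinin against wild type without), and 0 higher and 1 lower (CPL4RNAi without against wild type with). In wild type, the members lower with cytokinin came to 1, PLT2, in place of 3 at a q-value of 0.01, with adjustment within the comparison, at 1 FPKM or more, or over protein-coding genes alone. The genes whose cytokinin effect differed numbered 158 with solved standard errors alone and 231 at an adjusted p of 0.01. With PLT3 left out, the log2 ratio of the summed FPKM was -0.76 and -0.71 between genotypes without and with cytokinin, 0.0080 (in place of -0.12) for cytokinin in the groups labelled CPL4RNAi, and -0.76 and -0.72 in the crossed pairs. At a q-value of 0.01 the genes called with cytokinin numbered 2118 in place of 3313 in the groups labelled CPL4RNAi and 1262 in place of 1938 in wild type; at 2-fold they numbered 669 and 518, and between genotypes 2272 in place of 8492 without and 2519 in place of 9493 with cytokinin. Of 240 alternative list counts 195 stayed within 1.5 times and 45 moved. With genes of 1 FPKM or more compared, of the 3 nearest genes given 3 remained for PLT7, 2 each for PLT2 and BBM, 1 each for PLT1 and PLT5 and 0 for ANT. No paired analysis was possible because the table holds 1 value per group; leaving out replicates was not run for the same reason. The causes were not tested.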

Other observations

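Other relatives with AP2 domains also moved in both directions. Of 10 such genes 9 were tested between genotypes, and 2 were higher and 4 lower with cytokinin, 3 higher and 4 lower without it, in the groups labelled CPL4RNAi. The shares over all genes tested were 24.7% higher and 24.7% lower with cytokinin, and 22.5% and 21.5% without. WRI3 had 17.9 FPKM with and 12.7 FPKM without cytokinin in the groups labelled CPL4RNAi, against 8.55 and 6.21 FPKM in wild type, so it was higher in both genotype comparisons (log2 folds 1.07 and 1.03) and with cytokinin in both genotypes (0.50 and 0.46). TOE1 was lower in the group labelled CPL4RNAi with cytokinin (13.7 against 26.5 FPKM, log2 fold -0.95, SE at most 0.23), and TOE3 was lower without it (0.387 against 1.18 FPKM, log2 fold -1.61 ± 0.65). WRI1, a regulator of seed oil synthesis, was lower with cytokinin in the groups labelled CPL4RNAi (13.8 against 17.1 FPKM, log2 fold -0.31 ± 0.12). SNZ was listed at 0 in all groups.

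Genes beside the members on the chromosome were called in both directions or not at all. Before and after refer here to chromosome coordinates, whatever the strand of the member. BBM is on the minus strand, so AT5G17440 lies on its promoter side and CESA7 past its other end. AT3G20830, the gene before PLT1, had 19.0 FPKM with and 21.8 FPKM without cytokinin in the groups labelled CPL4RNAi, against 45.3 and 39.3 FPKM in wild type, log2 folds of -1.26 and -0.85. AT5G17440, which follows BBM at a distance of 4193 bases, had 23.3 and 24.2 FPKM against 41.6 and 41.7 FPKM, and AT5G65500, the gene before PLT7, 4.45 and 4.56 FPKM against 9.19 and 9.04 FPKM, in the same order of groups. The gene after PLT3, RBK1, was also lower in the groups labelled CPL4RNAi (17.8 and 17.1 FPKM against 29.5 and 24.3 FPKM), while PLT3 itself was not called. AtGRF2, the gene before ANT, was lower in the groups labelled CPL4RNAi on both media (6.75 and 8.28 FPKM with and without cytokinin, against 10.0 and 12.2 FPKM in wild type), whereas ANT was higher. CESA7, the gene before BBM, was higher in the group labelled CPL4RNAi without cytokinin (3.56 against 1.18 FPKM) and not called with it (2.18 against 2.55 FPKM). PSD, the gene before AIL1, was higher with cytokinin (27.5 against 21.4 FPKM) and not called without it (23.1 against 20.7 FPKM), and AT1G51200, after PLT2, was lower with cytokinin (271.2 against 350.3 FPKM) and not called without it (303.3 against 346.5 FPKM), each as the group labelled CPL4RNAi against wild type. AT5G65520, which lies 311 bases after PLT7, was not called between genotypes on either medium (log2 folds 0.05 with and 0.19 without cytokinin), nor was SQE3, after ANT (0.28 and -0.02). Within the groups labelled CPL4RNAi, SQE3 was higher with than without cytokinin (log2 fold 0.64) and CESA7 was lower (-0.70). In wild type RBK1 (0.28) and CESA7 (1.11) were higher with cytokinin. The remaining flanking genes were below 1 FPKM in every group. WIP5, which lies 9132 bases after PLT2, was at or under 0.117 FPKM in every group.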
